A study of Mus musculus with 28 samples.

Results

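Livers of CAR-deficient mice fed ethanol plus ellagic acid (EA) were compared with livers of CAR-deficient mice fed the control diet. The comparison used the 3 arrays titled for EA and the 3 titled for control in this genotype, 6 of the 28 arrays of the study, and every probe set of the array that was not an Affymetrix control and had a value, 45011 of 45037. A further 26 probe sets were blank on the CAR-deficient arrays, and the 64 Affymetrix controls were set aside. The steroid dehydrogenase gene Hsd3b5 fell by 5.89 units on the log2 scale, Lpl, C6, Hspa1a and Ugt2b38 fell by 1.02 to 1.62 units, and the cytochrome P450 gene Cyp2c29 and the glucose transporter gene Slc2a1 rose by 1.92 and 1.26 units. In all, 81 probe sets passed the test, 42 higher and 39 lower with EA.

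The mice were C3H/HeN animals, labelled female and 5 weeks old when acclimation began, before the diets, and all 6 carried the CAR deficiency, so the comparison holds no animal with an intact receptor. The EA group received Lieber's isocaloric liquid diet with ethanol and ellagic acid, about 50 mg per kg of body weight per day, whereas the control group received the same kind of diet with water in place of ethanol. Each diet was given ad libitum for 1 week and then at 12 g per day for 4 weeks. Liver RNA of 3 mice a diet was hybridised, 1 array a mouse as far as the labels tell. EA against control therefore joins the effects of ethanol, of ellagic acid and of less carbohydrate. The EA mice received both compounds and the control mice neither. By the paper's diet formula, the ethanol diets also held much less maltose and dextrin than the control diet. The study also fed ethanol alone (EtOH) and ethanol plus trans-resveratrol (RSV) to CAR-deficient mice, and all 4 diets to wild-type mice. The CAR-deficient strain came from another laboratory, and its allele is not given in the sources used here.

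CAR, the constitutive androstane receptor encoded by Nr1i3, is a nuclear receptor of hepatocytes. In response to drugs and other foreign compounds it moves to the nucleus, pairs with the retinoid X receptor and raises transcription of cytochromes P450, conjugating enzymes and efflux pumps, with Cyp2b10 as its best known mouse target. Ellagic acid is a plant polyphenol released from ellagitannins of fruit and oak wood. Hepatocytes oxidise ethanol to acetaldehyde through alcohol dehydrogenase, the P450 CYP2E1 and catalase, and acetaldehyde to acetate through aldehyde dehydrogenase. Liver also carries sets of genes that differ between male and female rodents under the control of the pattern of growth hormone release, among them many P450s.

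The deposited values were summaries made by the Distribution Free Weighted (DFW) method on a log2 scale. DFW rescales each probe set by how its probes vary over the arrays, so a difference in DFW units is a difference on the scale of that probe set and not a calibrated fold change. On 35711 probe sets (79.3%) the values varied by an SD of at most 0.01 over the 12 CAR-deficient arrays. These are called flat below, and their differences lie far under any size that could be read as a change of amount. The other 9300 probe sets were not flat. Each gene was represented by its probe set of highest mean level, and for 5182 genes that probe set was not flat. The Pearson correlation between any pair of the 12 arrays was between 0.97883 and 0.99843. The array of EtOH replicate 1 stood apart, at a distance (1 minus r) of 0.0134 to 0.0212 from the others. In 3436 of the 9300 probe sets, this array deviated most from the median of the 12 arrays. It enters neither group of the comparison, but it widens the shared estimate of the spread, and without it 173 probe sets passed, of which 77 were among the 81.

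The check of the deleted gene was not clear-cut. The probe set of Nr1i3 still gave signal in the CAR-deficient livers, at 8.82, 8.98 and 9.49 with EA, against 8.79, 8.55 and 8.69 with control (difference 0.42, adjusted p = 0.63). On the wild-type arrays, which were scaled apart, it read 8.96 to 10.10 over the 4 diets, so the ranges of the genotypes overlapped. Whether its probes lie in the deleted part of the gene is not given in the sources used here. None of the 3 probe sets of Cyp2b10 passed. Its probe set of highest level was at 7.08, 6.92 and 6.92 with EA, against 6.95, 6.82 and 6.83 with control (difference 0.11, adjusted p = 0.96). On the other two all EA arrays lay above all control arrays, with differences of 0.51 and 0.34 (adjusted p = 0.83 and 0.91). On those same probe sets EtOH replicate 1 read 9.69 and 10.15, above the other CAR-deficient arrays.

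Defining markers of hepatocytes were at the top of the scale in both groups. The mean levels of Alb, Apoa1, Apoa2, Apoh, Ttr, Tat, Cps1, Hnf4a and Fgb lay at the 98.7th percentile of all probe sets or above, and none of them passed the test. Alb and Apoh were flat, so their values could show no difference. All EA arrays of Fgb lay below all control arrays (difference -0.09, adjusted p = 0.86). The labelled sex was not borne out by sex-linked markers. All 3 probe sets of Xist, the RNA that silences an X chromosome in females, were flat at 5.93, 6.19 and 6.68, whereas 1 of the 2 probe sets of the Y-linked gene Eif2s3y stood between 9.58 and 9.79 with EA and between 9.66 and 9.76 with control, at the 91.7th percentile. The same picture held on the wild-type arrays, with Eif2s3y at the 92.1st percentile. EA and control overlapped in it, and the mice are described here by their label only.

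Across all 45011 probe sets, limma called 81 at an adjusted p under 0.05, which is 0.18% of those tested, with 0.0933% higher and 0.0866% lower with EA. Of the 81, 30 were flat (15 each way) and 51 were not (27 higher and 24 lower). The number of arrays limited the precision, since 12, 9 and 8 probe sets passed without EA replicates 1, 2 and 3, and 14, 6 and 8 without control replicates 1, 2 and 3. Of the genes described below, Cyp2c29, Slc2a1, C6 and Hspa1a passed in none of these 6 fits (highest adjusted p = 0.105, 0.111, 0.143 and 0.164), and Lpl and Ugt2b38 passed in 1 each. Every called probe set of the 81 had all 3 EA arrays on 1 side of all 3 control arrays, and together they named 64 genes. Among genes represented by 1 probe set, 27 of 18188 (0.148%) rose and 17 (0.0935%) fell. At an unadjusted p under 0.05 there were 5268 probe sets, and a fit of the 9300 probe sets that were not flat called 365, with 195 (2.1%) higher and 170 (1.83%) lower. The last probe sets inside the threshold were 1 that names no gene (adjusted p = 0.0469, 7.27 with EA against 8.07 with control on average), and the flat probe set of Fam114a2 (adjusted p = 0.0486), and the first outside were the flat probe sets of Tpsb2 (adjusted p = 0.0511) and Klhl22 (adjusted p = 0.0513). The median difference was near 0, at -0.00784 over the probe sets that were not flat. Because the RNA is from whole liver, a lower level from fewer cells of a type and one from less RNA per cell cannot be told apart.

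**Figure D1:**
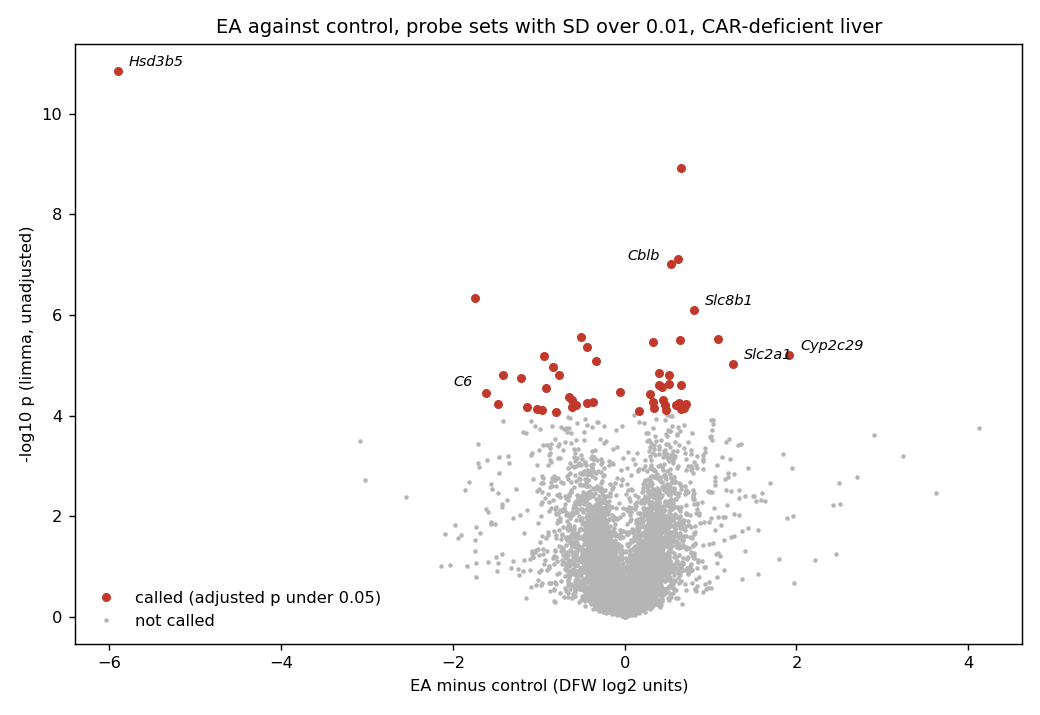
Difference between EA and control in DFW log2 units (x axis) against the unadjusted limma p on a -log10 scale (y axis) for the 9300 probe sets that were not flat, 1 point each, with the 51 called in red. Hsd3b5 lies alone at -5.89, and Cyp2c29, at 1.92, is the called probe set with the largest positive difference, while many grey points with larger differences than most called ones did not pass.

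Among the genes that fell, Hsd3b5 stood far from the rest. It encodes a 3-beta-hydroxysteroid dehydrogenase family member that works as a ketosteroid reductase in male mouse liver. Its level was 6.27, 6.39 and 6.31 on the EA arrays, against 12.14, 12.40 and 12.12 on the control arrays. The groups were 5.73 units apart at their closest arrays (difference -5.89, SE 0.12, adjusted p = 6.36e-07), and the call held with any 1 of the 6 arrays left out, with differences of -5.81 to -5.94.

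Single genes of lipid handling, of complement and of conjugation also fell. Lpl, which encodes lipoprotein lipase, the enzyme that frees fatty acids from circulating triglyceride, had levels of 9.19, 8.80 and 8.69 with EA, against 10.33, 10.43 and 10.16 with control (difference -1.42, SE 0.16, adjusted p = 0.031). All EA arrays were thus at least 0.97 units below all control arrays, and the other probe set of Lpl fell by 1.21 (adjusted p = 0.033). C6, a component of the membrane attack complex, was at 7.78, 7.82 and 7.81 with EA, against 9.76, 9.28 and 9.22 with control (difference -1.62, SE 0.20, adjusted p = 0.038). The 3 EA values of C6 were almost the same, and most of its spread lay among the control arrays. Cyp2u1, a P450 that hydroxylates fatty acids, fell by 1.14 (adjusted p = 0.045) and Ugt2b38, which belongs to the UDP-glucuronosyltransferases, fell by 1.02 (adjusted p = 0.046).

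Hspa1a, the gene of an inducible cytosolic Hsp70, was at 6.32, 6.54 and 6.39 with EA, against 8.08, 8.09 and 7.49 with control (difference -1.47, SE 0.20, adjusted p = 0.043). No EA array reached the lowest control array, replicate 3. Its paralog Hspa1b had lower EA values on each of 3 probe sets, with differences of -1.74 to -2.09, none of which passed (adjusted p = 0.32 to 0.352). The 2 genes are near copies, so probe sets of one may also read the other, although their transcripts were not compared here. In their promoters, 296 of the 300 bases (98.7%) are identical. The promoter of Hspa1a is shown because it holds the core of a heat shock element, the site of heat shock factors, in capitals (GAANNTTC, both strands searched; 7.86% of the 32851 RefSeq promoters of this length hold it). It lies at chr17:34972107-34972406 on the minus strand of GRCm38.p6, in a window of 300 bases that spans the gene's start, and the sequence is RefSeq's. The same search found the core in the promoters of Hspa1b and Bag3. None of the Dnajb1 and Dnajb4 promoters searched held it, although both genes were lower with EA without overlap.
Hspa1a: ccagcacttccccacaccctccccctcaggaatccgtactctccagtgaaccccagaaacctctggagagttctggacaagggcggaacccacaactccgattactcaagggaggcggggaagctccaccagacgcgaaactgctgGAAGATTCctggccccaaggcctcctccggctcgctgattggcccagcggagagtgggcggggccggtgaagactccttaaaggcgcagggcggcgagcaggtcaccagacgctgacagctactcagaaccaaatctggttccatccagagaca

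The smaller decreases were in genes of varied function. Scamp1, a secretory carrier membrane protein, fell by 0.77 (adjusted p = 0.031), and Mis12, a kinetochore protein, fell by 0.65 (adjusted p = 0.040). Tmem258, a subunit of the oligosaccharyltransferase, fell by 0.43, Ddx46, a spliceosomal helicase, by 0.33, and the predicted gene Gm15417 by 0.57. Setd1b, a histone H3 lysine methyltransferase, differed by only -0.05 and was not called once flat probe sets were left out (adjusted p = 0.70). The called probe sets of Gpr65, Magee1 and Lrp10 were flat, with differences of under 0.001 units in size.

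Cyp2c29 had the largest rise among called genes. It encodes a P450 of the mouse Cyp2c family and is a known target of CAR and of related receptors. Its level was 12.17, 11.70 and 11.92 with EA, against 10.24, 9.68 and 10.14 with control (difference 1.92, SE 0.19, adjusted p = 0.020). The lowest EA array lay more than 1 unit above the highest control array.

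Slc2a1, which encodes the glucose transporter GLUT1, was higher on all of its 3 probe sets. The representative one was at 8.92, 8.86 and 8.86 with EA, against 7.79, 7.52 and 7.56 with control (difference 1.26, SE 0.13, adjusted p = 0.024), and the others rose by 1.09 (adjusted p = 0.014) and 0.63 (adjusted p = 0.0011). No values of the groups overlapped on any of them. Slc8b1, the mitochondrial sodium and calcium exchanger, was at 9.99, 10.10 and 10.07 with EA, against 9.19, 9.29 and 9.25 with control (difference 0.81, SE 0.06, adjusted p = 0.0059).

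The other increases were in genes of varied function. Cblb, an E3 ubiquitin ligase that restrains receptor signalling, was at 8.24, 8.13 and 8.15 with EA, against 7.63, 7.62 and 7.64 with control (difference 0.54, SE 0.03, adjusted p = 0.0011). The control arrays of Cblb were within 0.02 units of each other. By their representative probe sets, Cblb, Slc8b1 and Hsd3b5 were the 3 of the 30 genes named by size that passed with any 1 EA or control array left out. Srsf5, a serine and arginine rich splicing factor, rose by 0.65, the transcription factor gene Sp1 by 0.52, the corepressor gene Rcor3 by 0.51 and Jmjd1c, of the histone demethylase family, by 0.39. Another probe set of Rcor3 rose by 0.66 (adjusted p = 2.67e-05). Rffl, another ubiquitin ligase, rose by 0.64, Mmp19, a matrix metalloproteinase, by 0.69, and Nudt16, a nucleotide hydrolase, by 0.71. Tacc2, Sema4b, Mbip and Dlg3 rose by 0.44 to 0.66. Adjusted p was between 0.014 and 0.046 for the representative probe sets of the genes from Srsf5 to Dlg3.

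**Figure D2:**
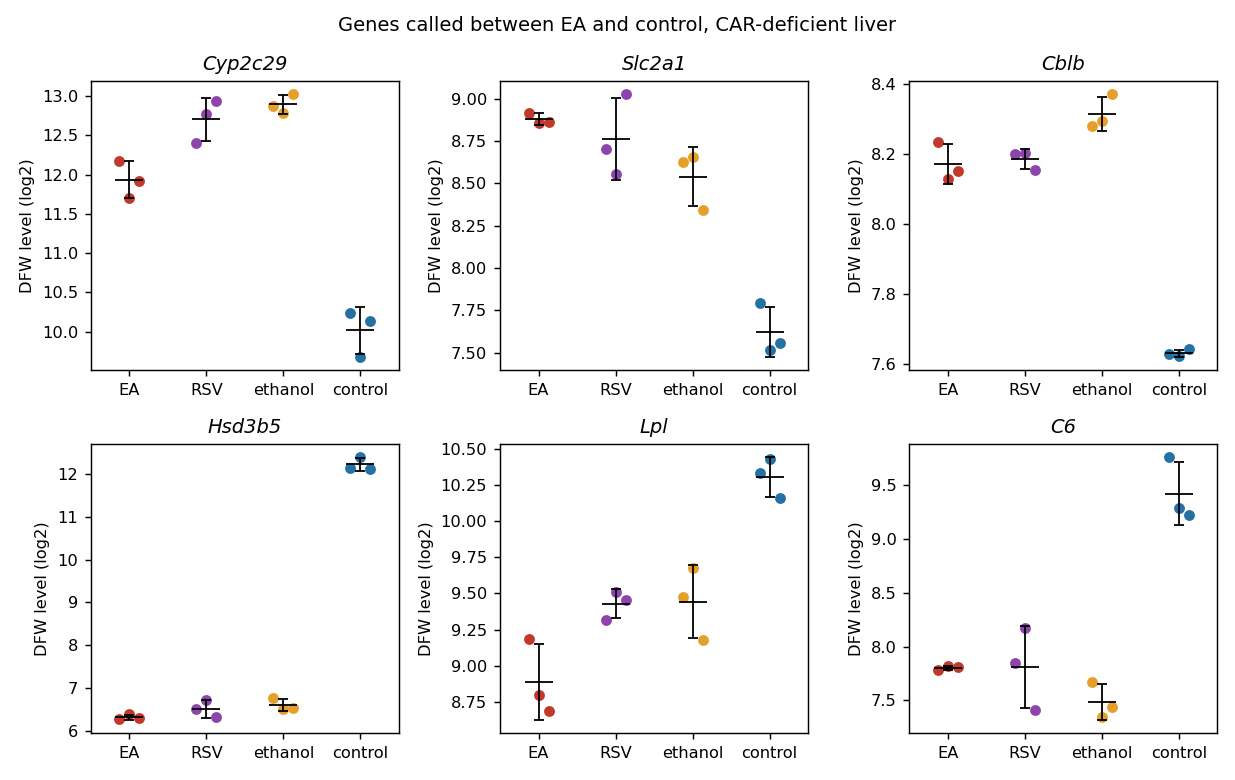
DFW log2 level (y axis, each panel on its own scale, not from 0) of 6 called genes on the CAR-deficient arrays, by diet, with 1 point an array and bars at the mean and SD of 3 arrays. EA lies apart from control in every panel, and the RSV and ethanol arrays lie on the same side of control as EA, for instance with Hsd3b5 between 6.27 and 6.39 with EA, against 12.12 to 12.40 with control.

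Lists of genes by function were then read for all their members. Counts of members whose 3 EA arrays lay beyond all 3 control arrays are set against the share among the 5182 genes that were not flat, which was 18.6% above and 18.4% below, and the medians against -0.00666 for those genes. The number of calls is read against 0.148% of genes higher and 0.0935% lower. A fit without flat probe sets, named where its calls are given, called 112 (2.16%) of these genes higher and 88 (1.7%) lower.

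The male-biased genes of growth hormone control, which are transcribed mainly in livers of male mice, were low with EA. Of 13 measured members, none of them flat, 2 fell by the test, Hsd3b5 and Ugt2b38, and 11 lay below all control arrays, with a median difference of -1.30. Slco1a1, an organic anion uptake transporter, was at 8.55, 9.86 and 9.51 with EA, against 12.18, 12.43 and 12.38 with control (difference -3.02, SE 0.68, adjusted p = 0.13). Elovl3, a fatty acid elongase, was at 6.92, 7.98 and 8.74 with EA, against 10.36, 10.73 and 10.20 with control (difference -2.55, adjusted p = 0.17). In both genes every EA array was more than 1 unit below every control array, but the EA arrays were spread over more than 1 unit. Cyp4a12a, a fatty acid hydroxylase, was at 9.10, 9.65 and 9.63 with EA, against 11.33, 11.44 and 11.34 with control (difference -1.91, adjusted p = 0.33). The differences of Serpina12, an adipokine of the serpin family, Cyp7b1, an oxysterol hydroxylase, Nudt7, a peroxisomal coenzyme A hydrolase, Obp2a, Cyp2d9 and Gstp1 were between -0.51 and -1.98 with no overlap, and Bcl6, a repressor of female-biased genes, and Ugt2b1 overlapped with control. Slco1a1, Elovl3 and Cyp7b1 passed when flat probe sets were left out of the fit (adjusted p = 0.031, 0.047 and 0.019).

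The female-biased genes lay mostly above control. Of 11 measured members none passed the test, 9 lay above all control arrays and the median difference was 1.00. Cyp2b9, a P450 of female liver, was at 12.25, 12.20 and 12.37 with EA, against 7.71, 9.06 and 10.31 with control (difference 3.24, SE 0.61, adjusted p = 0.089). The EA arrays of Cyp2b9 were within 0.17 units of each other, and the control arrays spread over 2.60. Cyp2b13, its close paralog, was at 9.34, 8.01 and 9.0 with EA, against 6.20, 6.32 and 6.36 with control (difference 2.49, adjusted p = 0.14). Fmo2, a flavin monooxygenase, Cyp3a44 and Hao2, a peroxisomal hydroxyacid oxidase, had differences of 1.49, 1.55 and 1.37 without overlap, as had Cyp17a1, Cux2, Trim24 and Prom1 at 0.31 to 1.00. Sult1e1, the estrogen sulfotransferase, and Abcd2 overlapped with control. Cyp2b9, Cyp2b13 and Fmo2 passed in the fit without flat probe sets (adjusted p = 0.018, 0.033 and 0.046). Near copies such as Cyp2b9 and Cyp2b13 may share hybridisation.

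Targets of CAR in xenobiotic metabolism were read in these mice, which are labelled deficient in the receptor. Of 31 measured members 30 were not flat, 1 rose by the test, Cyp2c29, 15 lay above all control arrays and none below, and the median difference was 0.62. Leaving out EA replicate 3 lowered that median to 0.39. Gsta2, a glutathione S-transferase, was at 11.42, 11.44 and 11.21 with EA, against 9.72, 9.30 and 9.54 with control (difference 1.84, SE 0.34, adjusted p = 0.087). Cyp2c37 was at 11.66, 11.75 and 11.98 with EA, against 11.02, 10.68 and 10.61 with control (difference 1.03, adjusted p = 0.055). Neither overlapped, and the differences of Gstt3, Cyp2c38 and Cyp2c39 were 1.59, 1.20 and 1.17. The glutathione S-transferase Gstm1 and the efflux pump Abcc3 differed by 0.72 and 0.81. The differences of Cyp3a11, Cyp1a2, Gstt1 and Ugt2b34, members of the same list, were between -0.0033 and 0.11. Cyp2b9 and Cyp2b13 belong to this list as well as to the female-biased one. In the fit without flat probe sets 8 members were called higher and none lower, Cyp2c29, Cyp2c37, Cyp2c38, Cyp2c39, Gsta2, Gstm1, Cyp2b9 and Cyp2b13.

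**Figure D3:**
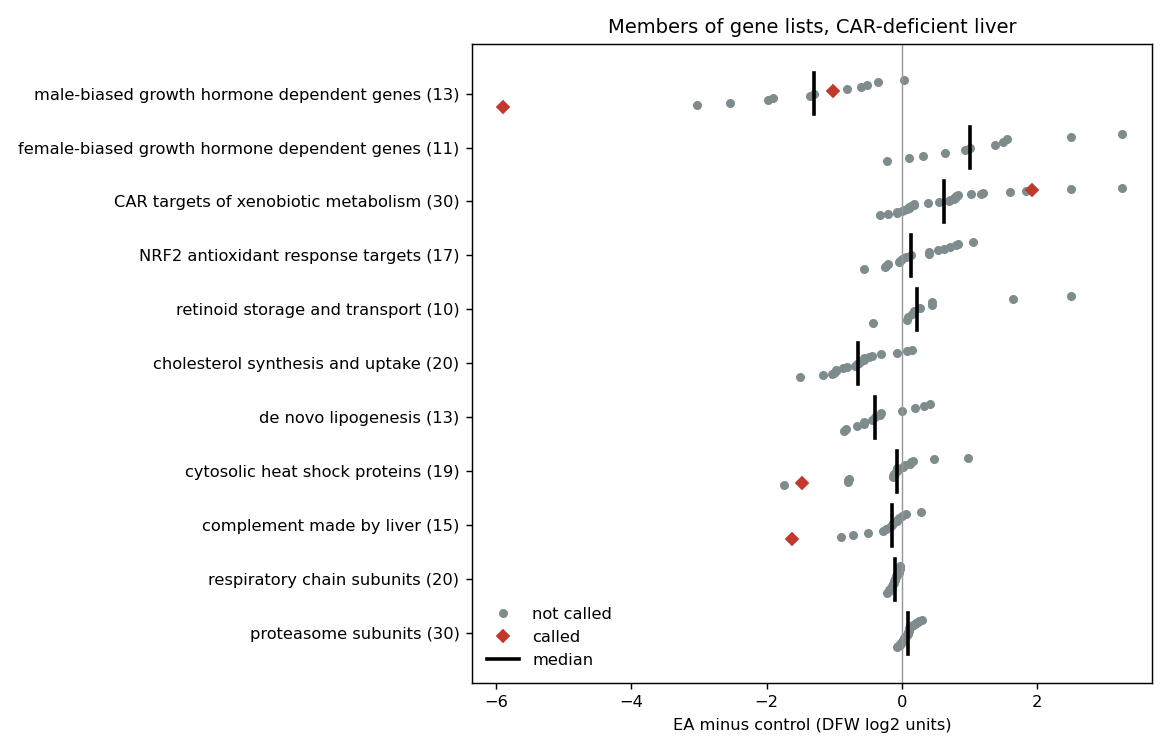
Difference between EA and control in DFW log2 units (x axis) for the members of 11 gene lists that were not flat, with the number of members in brackets; each point is a gene, red diamonds are called and the black bar is the list's median. The male-biased genes have a median of -1.30 and the female-biased genes one of 1.00, while the respiratory chain and proteasome genes lie between -0.22 and 0.30.

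Oxidative and metal stress genes were read next. Of 18 targets of the transcription factor NRF2 measured, 17 were not flat and none passed, with 6 above and 3 below all control arrays and a median of 0.14. Nqo1, a quinone reductase, was at 8.14, 7.74 and 8.06 with EA, against 6.92, 6.84 and 7.02 with control (difference 1.06, adjusted p = 0.13), and Srxn1, which encodes sulfiredoxin, differed by 0.53 (adjusted p = 0.12). Neither gene's groups overlapped, and both passed without flat probe sets (adjusted p = 0.031 and 0.039).

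The metallothioneins Mt1 and Mt2, small proteins that bind zinc and copper, had the steepest differences among uncalled stress genes. Mt2 was at 12.21, 13.01 and 12.99 with EA, against 9.99, 8.44 and 8.90 with control (difference 3.63, SE 0.91, adjusted p = 0.17). Mt1 was at 13.02, 13.70 and 13.85 with EA, against 11.91, 10.33 and 11.06 with control (difference 2.42, SE 0.67, adjusted p = 0.20). In both genes all EA arrays were above all control arrays, and control replicate 1 was the highest control array. Mt2 passed in the fit without flat probe sets (adjusted p = 0.042). The zinc transporters Slc30a1, Slc30a10 and Slc39a14 overlapped with control, and the list's median was 0.16. The promoters of Mt1 and Mt2 are shown because the genes lie side by side and had the same direction. Capitals mark the core of the metal response element, the site of the zinc sensor MTF1 (TGCACNC or TGCGCNC, on either strand), which 25.7% of the 32851 promoters hold and 7.11% hold more than once. They are at chr8:94178839-94179138 and chr8:94172368-94172667, both on the plus strand, with 3 and 4 matches.
Mt1: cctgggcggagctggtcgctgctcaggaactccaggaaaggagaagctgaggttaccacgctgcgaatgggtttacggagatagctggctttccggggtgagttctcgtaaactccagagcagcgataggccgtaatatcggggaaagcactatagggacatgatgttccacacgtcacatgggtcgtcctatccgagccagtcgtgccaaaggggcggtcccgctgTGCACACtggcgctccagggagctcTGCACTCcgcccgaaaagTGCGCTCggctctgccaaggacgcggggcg
Mt2: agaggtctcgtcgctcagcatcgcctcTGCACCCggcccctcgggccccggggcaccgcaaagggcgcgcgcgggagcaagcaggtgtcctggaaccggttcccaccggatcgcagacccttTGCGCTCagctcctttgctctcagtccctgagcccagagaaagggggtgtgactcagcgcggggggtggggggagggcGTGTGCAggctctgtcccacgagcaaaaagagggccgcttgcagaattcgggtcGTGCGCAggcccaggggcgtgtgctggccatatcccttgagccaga

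Of 11 measured genes of retinoid storage and transport, 10 were not flat, none passed, and 3 lay above all control arrays, with a median of 0.22. Cyp26a1, the P450 that clears retinoic acid and is itself induced by it, was at 10.28, 11.08 and 10.46 with EA, against 7.78, 8.11 and 8.41 with control (difference 2.50, SE 0.68, adjusted p = 0.20). Cyp26b1, which acts on the same substrate, was at 8.81, 9.37 and 8.92 with EA, against 7.52, 7.35 and 7.32 with control (difference 1.63, adjusted p = 0.19). Neither gene's groups overlapped, and Lrat, which esterifies retinol for storage, differed by 0.45. The Cyp26a1 promoter, at chr19:37697558-37697857 on the plus strand, is shown for its retinoic acid response element, a direct repeat of AGTTCA with 5 bases between, in capitals on the opposite strand. This repeat, searched on both strands, was found in 8 of the 32851 promoters (0.0244%). It was not found in the promoter of Cyp26b1. Only this exact repeat, the form that Cyp26a1 holds, was searched, so other forms of the element would have been missed.
Cyp26a1: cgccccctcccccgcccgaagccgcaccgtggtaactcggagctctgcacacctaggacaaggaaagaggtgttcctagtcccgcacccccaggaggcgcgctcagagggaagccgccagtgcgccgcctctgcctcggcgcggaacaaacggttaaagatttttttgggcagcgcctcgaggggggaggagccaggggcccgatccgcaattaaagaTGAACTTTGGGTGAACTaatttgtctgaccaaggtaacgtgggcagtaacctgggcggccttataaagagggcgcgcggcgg

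**Figure D4:**
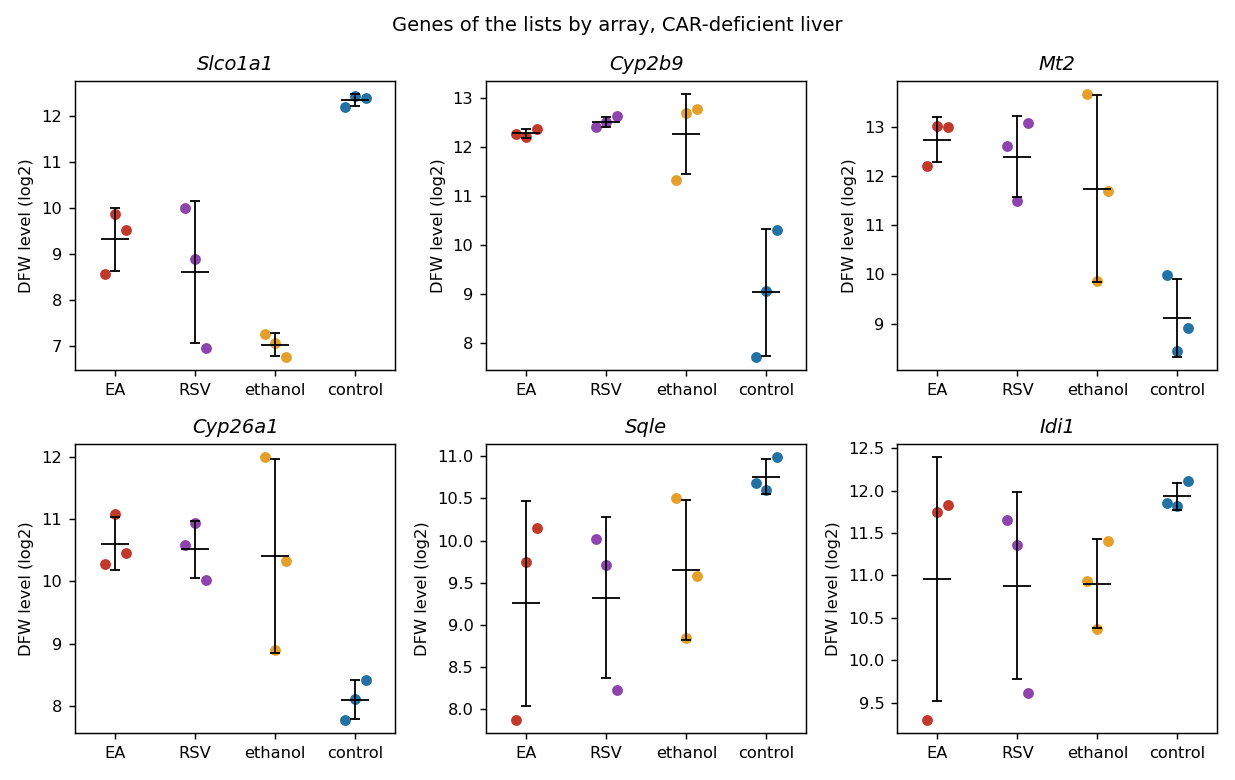
DFW log2 level (y axis, each panel on its own scale, not from 0) of 6 list members on the CAR-deficient arrays, by diet, with 1 point an array and bars at the mean and SD of 3 arrays. None of the 6 passed the test for EA against control. Slco1a1, Cyp2b9, Mt2 and Cyp26a1 separate EA from control, and in Sqle and Idi1 EA replicate 1, at 7.88 and 9.30, lies below the other EA arrays.

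In EA against control, the sterol and fatty acid synthesis lists depended on 1 array. Of 20 genes of cholesterol synthesis and uptake none passed, 5 lay below all control arrays, none above, and the median was -0.65. Sqle, which encodes squalene epoxidase, was at 7.88, 9.75 and 10.15 with EA, against 10.69, 10.60 and 10.99 with control (difference -1.50, adjusted p = 0.47). Idi1, the isopentenyl diphosphate isomerase, was at 9.30, 11.74 and 11.84 with EA, against 11.86, 11.82 and 12.12 with control. EA replicate 1 was the lowest of the 6 arrays in both, and over the whole list its median difference from the control mean was -1.47, against -0.26 for EA replicate 2 and -0.08 for EA replicate 3. Without EA replicate 1 the list's median was -0.18. Against the same control arrays the list's median was -0.68 with RSV and -0.66 with ethanol.

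The 13 genes of de novo lipogenesis that were not flat, of 15 measured, had a median of -0.39, and -0.11 without EA replicate 1. Thrsp, a regulator of lipogenesis also called Spot 14, was at 9.12, 12.72 and 12.90 with EA, against 12.21, 12.33 and 12.67 with control (difference -0.83, adjusted p = 0.87), and its difference was 0.40 without EA replicate 1. Fasn, the fatty acid synthase, was at 9.56, 11.13 and 10.83 with EA, against 11.16, 11.32 and 11.63 with control. Cyp7a1, the rate-limiting enzyme of bile acid synthesis, had 8.33, 11.34 and 11.64 with EA, against 12.61, 11.87 and 12.33 with control (difference -1.83, adjusted p = 0.54). In these 3 genes too EA replicate 1 was the lowest EA array. The 3′ minus 5′ difference of the control probe sets, which is larger in degraded RNA, was 0.28, 0.18 and 0.20 for Gapdh with EA, against 0.22, 0.21 and 0.20 with control. For actin it was 1.37, 1.22 and 1.31 with EA, against 1.28, 1.25 and 1.28 with control. EA replicate 1 had the highest value of the 12 CAR-deficient arrays on both, and the part of RNA quality in its low levels was not tested.

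**Figure D5:**
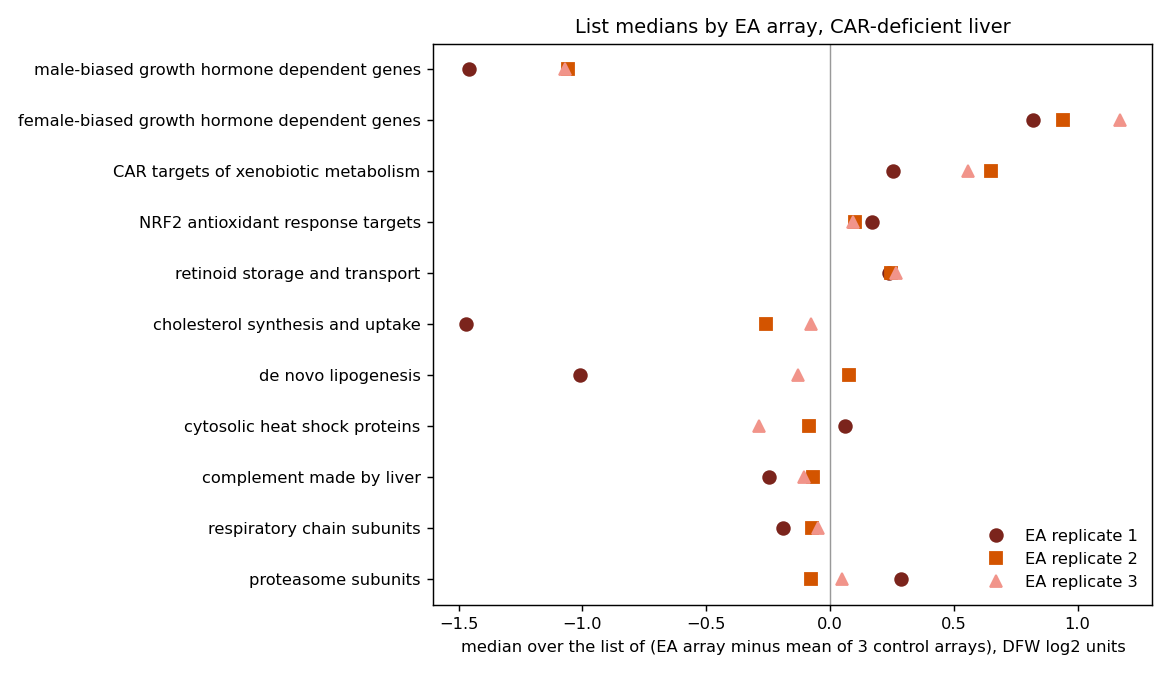
Median over each gene list of an EA array's level minus the mean of the 3 control arrays, in DFW log2 units (x axis), with 1 symbol per EA array. EA replicate 1 lies apart from the others for cholesterol synthesis (-1.47) and de novo lipogenesis (-1.01). The 3 arrays lie on the same side of 0 for the male-biased, female-biased and CAR target lists, and also for others, cholesterol synthesis among them.

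The heat shock and complement lists each held 1 called gene, Hspa1a and C6, both described above. Among 21 cytosolic heat shock genes, 19 were not flat, 6 lay below and 1 above all control arrays, and the median was -0.07. The cochaperones Dnajb1, Dnajb4 and Bag3 differed by -0.80, -0.78 and -0.79 without overlap (adjusted p = 0.32, 0.13 and 0.17), whereas the chaperones Hspa8 and Hsp90aa1 overlapped. Dnajb4 and Bag3 passed without flat probe sets (adjusted p = 0.034 and 0.049). Of 15 complement genes 7 lay below and 1 above, with a median of -0.15. C8a, C8b and C9, which join C6 in the membrane attack complex, differed by -0.89, -0.73 and -0.49 without overlap (adjusted p = 0.17, 0.33 and 0.49), and Hc, the mouse C5 gene, by -0.13. C8a passed without flat probe sets (adjusted p = 0.047).

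Genes of ethanol breakdown differed little. Of 12 measured, 10 were not flat, none passed, and 1 lay above and 1 below all control arrays, with a median of 0.04. Adh4 was at 10.45, 10.43 and 10.58 with EA, against 11.02, 11.23 and 11.28 with control (difference -0.69, adjusted p = 0.53). The differences of Adh1, Cyp2e1, Cat and Aldh2 were 0.07, 0.05, 0.04 and 0.15. None of the 14 measured genes of the polyphenol conjugation list, which holds UDP-glucuronosyltransferases and sulfotransferases but not Ugt2b38, passed either, with a median of 0.0063 and 3 above and 1 below all control arrays.

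The part of the EA diet that is ethanol was set beside it. Ethanol alone against control called 155 probe sets (0.344%) and RSV against control 27 (0.06%). All of these use the same 3 control arrays, so their values are given side by side only. Hsd3b5 differed from control by -5.89 with EA, -5.70 with RSV and -5.61 with ethanol, Cyp2c29 by 1.92, 2.69 and 2.88, and Lpl by -1.42, -0.88 and -0.86. For the lists, the male-biased genes had medians of -1.30, -1.41 and -1.58 in the same order of diets, the female-biased genes 1.00, 1.79 and 1.70, and the CAR targets 0.62, 0.56 and 0.78.

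EA was then tested against ethanol directly, the comparison in which the polyphenol is the difference between the diets. limma called none of the 45011 probe sets (0%), with a smallest adjusted p of 0.0932 and 3824 probe sets at an unadjusted p under 0.05, and a fit without flat probe sets called none. EA against RSV called none either (0%), with a smallest adjusted p of 0.187 and 1342 probe sets at an unadjusted p under 0.05. Cyp4a12a, at 9.10, 9.65 and 9.63 with EA, was at 6.70, 7.39 and 6.33 with ethanol (difference 2.65, adjusted p = 0.43). Slco1a1, at 8.55, 9.86 and 9.51 with EA, was at 7.25, 7.06 and 6.76 with ethanol (difference 2.29, SE 0.68, adjusted p = 0.47). Both separated EA from ethanol without overlap, but neither passed. For Cyp2c29 the EA minus ethanol difference was -0.96 (adjusted p = 0.37) and for Cars, a cysteinyl-tRNA synthetase, it was -0.71 (adjusted p = 0.37). Cars was at 7.50, 7.28 and 7.38 with EA, 8.35, 7.75 and 8.20 with ethanol and 8.22, 8.28 and 8.25 with control. With 3 arrays a diet, a test that calls nothing does not show that the diets acted alike.

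As whole profiles, EA and control arrays were farther apart than arrays of 1 diet. The mean distance between the groups was 0.00844 and that within them 0.00372, an excess of 0.00472. An exact one-sided permutation test over the 20 relabellings of the 6 arrays gave p = 0.1, which is the smallest value that 3 against 3 arrays allow.

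The wild-type mice served to ask where the EA difference depended on the genotype. In wild-type livers, with 4 arrays a diet, EA against control called 2728 probe sets higher (6.06%) and 3667 lower (8.15%). Of the 81 probe sets called in CAR-deficient livers, 63 (77.8%) were called the same way in wild-type livers and none the opposite way, which is 0.985% of the 6395 called in wild-type livers. The interaction itself called 826 probe sets (1.84%), 553 higher and 273 lower in CAR-deficient mice. After quantile normalization of all arrays it called 13776, 993 higher and 12783 lower. DFW had been run apart for the 2 genotypes, 507 of the 826 were flat in wild-type and 483 in CAR-deficient mice, and only 89 were flat in neither. When only the 5735 probe sets that were flat in neither genotype were fitted, 61 passed. Cyp2c29 differed by 1.92 in CAR-deficient and 1.14 in wild-type livers (adjusted p of the interaction 0.029), and Hspa1a by -1.47 and -0.68 (0.040). Cyp2b10 went the other way, since on 1 of its 3 probe sets the difference was 0.51 in CAR-deficient and 3.47 in wild-type livers (adjusted p of the interaction 0.033), and on another it was 0.34 and 3.88 (0.012), whereas on the third, the one of highest level, it was 0.11 and 1.76 (0.13).

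Markers of other liver cells were read beside these results. Of 10 Kupffer cell markers that were not flat, 8 lay below all control arrays and none passed, and their mean level was between 9.07 and 9.28 with EA, against 9.34 to 9.59 with control. Adgre1, C1qb and C1qc differed by -0.52, -0.38 and -0.37 (adjusted p = 0.17, 0.084 and 0.10). Tff3, the only cholangiocyte marker that was not flat, was at 6.72, 6.90 and 6.99 with EA, against 9.35, 8.28 and 8.10 with control (difference -1.71, adjusted p = 0.097), and the erythroid Alas2 was at 8.09, 8.35 and 8.55 with EA, against 9.70, 9.87 and 10.08 with control (difference -1.55, adjusted p = 0.14). In the fit without flat probe sets C1qb, C1qc, Tff3 and Alas2 passed as lower (adjusted p = 0.036, 0.045, 0.021 and 0.035). Of 5 stellate cell and fibroblast markers that were not flat, Dcn and Lrat lay above and Col3a1 below all control arrays, none passed, and the mean level was 9.46 to 9.52 with EA, against 9.22 to 9.47 with control. Dcn, which encodes decorin, differed by 0.56 (adjusted p = 0.087) and passed without flat probe sets (adjusted p = 0.026). The other cholangiocyte and T and NK cell markers were flat, and the 6 sinusoidal endothelial markers had mean levels of 9.64 to 9.68 with EA, against 9.56 to 9.67 with control. Their part in the lower levels of C6, Lpl and the complement genes was not tested.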

How the data were processed

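Liver RNA of CAR-deficient and wild-type mice was hybridised to Affymetrix Mouse Genome 430 2.0 arrays and scanned with GeneChip Command Console. The authors summarised the probes with DFW in R, and the values show that the 2 genotypes were run apart, since probe sets that are flat in one are not in the other. The deposited values were log2 DFW levels, 1 column per array, and all columns were used. No depth applies to arrays.

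Genes were named from the platform annotation. Of the probe sets, 34945 named 1 gene, 932 several and 9160 none, and only the first were named. A gene was represented by its probe set of highest mean level over the 12 CAR-deficient arrays. EA was tested against control with limma 3.58.1 in R 4.3.3 (lmFit and eBayes, two-sided), fitted over the 12 CAR-deficient arrays and 4 diets, with Benjamini-Hochberg adjustment over 45011 probe sets and a threshold of 0.05. The interaction with genotype was fitted over all 28 arrays. The fit was tested on simulated data. The genes named were Nr1i3, the members of the lists discussed, and the 15 higher and 15 lower called genes of largest difference without overlap. Members and lists were chosen with earlier results of these data known.

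Alternatives were quantile normalization, leaving out flat or dim probe sets, a least difference of 0.1, a fit of only the groups compared, the replicate number as a block, each array left out, no moderation, rank product, and, chosen after seeing the data, leaving out EtOH replicate 1. Values of another diet enter only where named.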

Additional observations from a re-analysis of the deposited data

Results flagged for a closer look

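For 12 of the genes named, the difference between EA and control was not the same in the 2 genotypes by limma's interaction test at an adjusted p under 0.05. The value given is the CAR-deficient difference less the wild-type one, and since DFW was run apart for the genotypes the 2 differences are not on 1 calibrated scale. In wild-type mice 6 of these genes were not flat. The value was 0.78 for Cyp2c29 (adjusted p = 0.029), with 1.92 in CAR-deficient and 1.14 in wild-type livers, 0.56 for Mmp19 (adjusted p = 0.015), 0.43 for Rffl (adjusted p = 0.011), 0.33 for Rcor3 (adjusted p = 0.026) and -0.79 for Hspa1a (adjusted p = 0.040). In those 5 genes the direction was the same in both genotypes and the CAR-deficient difference was the larger in size. Lrp10 had 0.33 (adjusted p = 0.0016), but its probe set was flat in CAR-deficient mice. The wild-type values of the other 6 genes were flat. For Mbip, Dlg3, Tmem258 and Nqo1 the interaction was essentially the CAR-deficient difference. It was 0.47 for Mbip (adjusted p = 6.32e-05), 0.44 for Dlg3 (adjusted p = 2.55e-05), -0.43 for Tmem258 (adjusted p = 5.95e-05) and 1.05 for Nqo1 (adjusted p = 0.0057). Gpr65 (-0.000827) and Magee1 (0.000545) were flat in both genotypes.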

How the results depend on the processing

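The count of 81 probe sets between EA and control depended on the setting. It was 26 after quantile normalization, 365 without flat probe sets, 50 with a least difference of 0.1, 11 in a fit of the 2 groups alone, 53 without moderation of the variances and 1337 by rank product, and 6 to 14 with 1 EA or control array left out. It stayed within 1.5 times of 81, at 103, with probe sets above the median level alone. With the replicate number as a block it was 9. The residuals of same-numbered EA and control arrays correlated at 0.00414, -0.102 and 0.0951, and those of differently numbered ones at -0.146 to 0.163. With 3 arrays a diet, these values cannot decide whether the numbers pair the arrays. Chosen after seeing the data, leaving out EtOH replicate 1 gave 173, and 725 together with leaving out flat probe sets. Of the 30 named called genes, 13 passed after quantile normalization, 3 in the fit of the 2 groups, 2 with the block and 30 without EtOH replicate 1. The cause was not tested.

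EA against ethanol and EA against RSV called none under any alternative run for them. Rank product and the fit without moderation were run for EA against control only. The interaction's 826 was 13776 after quantile normalization, 425 without flat probe sets, 531 with a least difference of 0.1, 609 to 823 with 1 array left out, 1252 without EtOH replicate 1 and 61 with probe sets that were flat in neither genotype. Among the differences of the named genes, Lrp10 changed sign after quantile normalization (0.0126) and Thrsp without EA replicate 1 (0.404, and -1.49 to -0.69 without any other EA or control array). Of the 7 list genes called, Hsd3b5 passed with any 1 EA or control array left out, Lpl, Ugt2b38 and Srsf5 in 1 of these 6 fits, and Cyp2c29, C6 and Hspa1a in none. With the probe set of largest SD for each gene the count was also 7. The p of the separation of the arrays was at its smallest possible value, 0.1, under every distance run, which says nothing of its stability.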

Other observations

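Several genes outside the lists had large differences without overlap that did not pass the test, chosen here for their size after their values were seen. Noct, a nocturnin of circadian output, was at 7.84, 8.10 and 8.41 with EA, against 9.94, 9.94 and 10.05 with control (difference -1.86, adjusted p = 0.16). Hhex, a homeobox factor of hepatocytes, was at 9.45, 9.77 and 10.11 with EA, against 11.63, 11.33 and 11.45 with control (difference -1.69, adjusted p = 0.10). The noncoding RNAs Meg3 and Rian, which lie in 1 imprinted cluster, differed by 1.69 and 1.24 (adjusted p = 0.14 and 0.16). Meg3 was at 8.26, 9.23 and 9.70 with EA and between 7.35 and 7.38 with control. Its difference was 0.07 with ethanol alone and 0.70 with RSV, and that of Rian was 0.03 and 0.47. EA was not called against ethanol or against RSV for any probe set. Sult3a1, a sulfotransferase, was at 7.99, 7.92 and 8.39 with EA, against 5.62, 5.74 and 5.58 with control (difference 2.46, adjusted p = 0.45), and its difference was 5.54 with ethanol and 3.01 with RSV.

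Of 20 respiratory chain genes that were not flat, none had a positive difference, 6 lay below all control arrays and the median was -0.11, with Cox7a2, of cytochrome oxidase, at -0.22 (adjusted p = 0.16). Of 30 proteasome genes that were not flat, 24 had a positive difference, with a median of 0.09 that was -0.02 without EA replicate 1. Only 3 of them lay above all control arrays and none below. Among all 5182 genes that were not flat, 2513 had a positive difference. The iron hormone gene Hamp2 was at 12.23, 13.20 and 13.50 with EA, against 10.37, 11.15 and 11.53 with control (difference 1.96, adjusted p = 0.24), and Rhbg, a transporter of ammonium, differed by 1.27 (adjusted p = 0.12). Among acute phase genes Saa1 was at 8.49, 8.35 and 8.81 with EA, against 10.07, 11.53 and 10.48 with control (difference -2.14, adjusted p = 0.54), whereas Orm3 differed by 1.36 (adjusted p = 0.31). None of these genes passed the test. In the fit without flat probe sets Noct, Hhex, Meg3, Rian and Rhbg passed (adjusted p = 0.041, 0.023, 0.034, 0.042 and 0.028).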
